A study of Caenorhabditis elegans with 9 samples.

Results

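The genes described here are 9 neuropeptide precursors that the authors list as higher in VA motor neurons of unc-4 mutants than in VA motor neurons of wild type worms of Caenorhabditis elegans. They were picked by name out of the 214 genes of that list: flp-9, flp-15 and flp-18 of the FMRFamide-like family, and nlp-12, nlp-15, nlp-38, nlp-40, Y67D8B.4 and Y23B4A.2 of the other peptide precursors. Y67D8B.4 is now called nlp-81 and Y23B4A.2 is now called capa-1, and these names are used below; the current gene table gives nlp-38 as mihp-1. RNA sequencing covered 9 libraries of synchronized L2 larvae, 3 in each of 3 groups. The unc-4 VA group holds sorted neurons of unc-4 mutants, whose allele the labels do not give. The wild type VA group holds neurons sorted in the same way, and both groups carry the reporters pUnc-4::mCherry and pUnc-4C::GFP, whose names place them under the promoter of the gene that is mutated. The whole worm group holds all cells of frozen N2 larvae. Cells with red but no green fluorescence were collected, and per the labels such cells include AVF neurons beside VA neurons. No label ties the replicates to separate cultures, so the spread given below may be technical. As RNA of many sorted cells was pooled, fewer cells of a type and less RNA per cell cannot be told apart.

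Neuropeptides are made as precursor proteins that are cut at basic residues and mostly amidated, packed into dense core vesicles and released to act on G protein-coupled receptors. FMRFamide-like (flp) and neuropeptide-like (nlp) precursors are used by many neurons of the worm, each in its own set of cells. UNC-4 is a homeodomain repressor that keeps VA neurons, which drive backward movement, from taking on features of their VB sister neurons, such as expression of the homeobox gene ceh-12.

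Values are the authors' TPM (transcripts scaled to a common total, corrected for transcript length), so levels can be compared between genes but sequencing depth is unknown. The members were chosen because the authors had called them higher in this contrast, so the values of the contrast are a description with no test. In the authors' deposited table the false discovery rate (FDR) p-value of the members runs from 9.6e-11 for nlp-12 to 0.047 for nlp-15, against a limit of 0.05; genes beyond that limit are not analysed here. All 214 genes of the list (100%) were called by the authors in the same direction, so being called says nothing particular about the members. Wild type VA libraries carried all 11 of 11 markers of VA and cholinergic ventral cord neurons as listed genes above whole worms, unc-4 among them; none of these is in the unc-4 list, so their levels in the mutant libraries are not analysed here. Some markers of other neurons were in the whole-worm list as well. The command interneuron marker fax-1 (1 of 4 listed) had a ratio of mean TPM of 15.8. The ratio was 8.47 for the GABA neuron marker snf-11 (1 of 5 listed). For the head motor neuron markers unc-42 and lim-4 (2 of 3 listed) it was 7.88 and 3.48. The touch neuron marker mec-7 (1 of 5 listed) had a ratio of 3.83. Of these, mec-7 averaged 635 ± 346 TPM in wild type VA libraries and 166 ± 26.8 TPM in whole worms (SD, n = 3 each), and lim-4 was not separated. Heat shock genes of the whole-worm list took 5.04%, 32.4% and 1.79% of TPM in wild type VA replicates 1, 2 and 3. Because TPM has a fixed total, this share lowers all other genes of wild type replicate 2. Heat shock shares of the unc-4 libraries are not analysed here.

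All 9 members had every unc-4 library above every wild type library. Of all listed genes 70.1% were separated in this way, and the selection on the same libraries sets both figures. In 7 of the 9 the lowest unc-4 library was at least 2 times the highest wild type library, beside 45.3% of all listed genes; nlp-40 and nlp-81 had narrower gaps. Together the members made up 1.84%, 0.842% and 2.40% of TPM in replicates 1, 2 and 3 of unc-4, against 0.120%, 0.0944% and 0.133% in wild type replicates 1, 2 and 3. The mean was 1.69% ± 0.791 in unc-4 and 0.116% ± 0.0197 in wild type VA neurons (SD, n = 3 each). The median difference over the members was 3.60 on the log2(TPM + 1) scale, unc-4 minus wild type, beside 2.90 over all listed genes. The added 1 TPM compresses differences of genes with low levels, so these medians also depend on level. Ratios of mean TPM ran from 4.94 for nlp-15 to 67.1 for capa-1, with a median of 20.1 over the members and 14.9 over all listed genes.

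**Figure D1:**
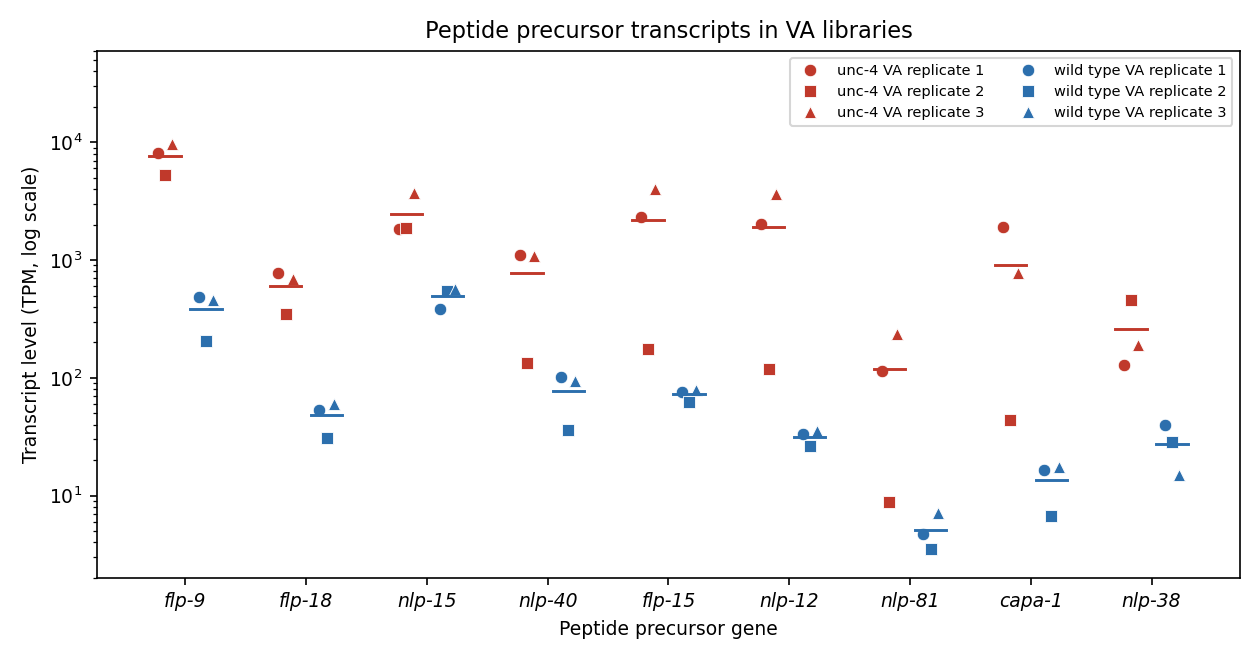
Level of each precursor in TPM (log axis) in the 3 unc-4 VA libraries (red) and the 3 wild type VA libraries (blue). Marker shapes are replicate numbers and lines are group means. All red points lie above the blue points of the same gene. The red square (replicate 2) is far below the other red points for flp-15, nlp-12, nlp-81 and capa-1, and less far for nlp-40.

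The FMRFamide-like precursor gene flp-9 (WBGene00001452, chromosome IV, 12754558 to 12757570 in WBcel235, minus strand) was the most abundant of all 214 listed genes in the mutant neurons. It read 8183, 5269.8 and 9705 TPM in replicates 1, 2 and 3 of unc-4, against 489, 204 and 460.2 TPM in replicates 1, 2 and 3 of wild type. All 3 unc-4 libraries were high, and the lowest of them lay 10.8 times above the highest wild type library. The mean was 7719 ± 2254 TPM in unc-4 and 384 ± 157 TPM in wild type VA neurons (SD, n = 3 each), a ratio of 20.1. This gene alone made up 44.5%, 62.6% and 40.4% of the summed TPM of the members in unc-4 replicates 1, 2 and 3.

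The gene flp-18 (WBGene00001461, chromosome X, 3012182 to 3018555, minus strand) encodes peptides that act on the receptors NPR-1, NPR-4 and NPR-5 and is known from interneurons that control locomotion. It read 781, 348 and 686 TPM in replicates 1, 2 and 3 of unc-4, against 53.7, 30.6 and 60.1 TPM in replicates 1, 2 and 3 of wild type. The unc-4 libraries stayed within a factor of 2.25 of each other and did not overlap with wild type. The mean was 605 ± 228 TPM in unc-4 and 48.2 ± 15.5 TPM in wild type (SD, n = 3 each), a ratio of 12.6.

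The gene flp-15 (WBGene00001458, chromosome III, 13663400 to 13667839, minus strand) encodes peptides reported to act on the receptor NPR-3. It read 2318, 174 and 4048 TPM in replicates 1, 2 and 3 of unc-4, against 76.3, 62.4 and 78.4 TPM in replicates 1, 2 and 3 of wild type. The wild type libraries were close to each other, while unc-4 replicate 2 stood far below the other mutant libraries and only 2.41 times above the wild type mean. The mean was 2179.8 ± 1940.4 TPM in unc-4 and 72.4 ± 8.67 TPM in wild type (SD, n = 3 each). The ratio of means, 30.1, was 17.2 without unc-4 replicate 3, and the ratio of geometric means of TPM + 1 was 16.2.

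Among the nlp genes, nlp-12 (WBGene00003750, chromosome I, 1843384 to 1843959, plus strand) encodes cholecystokinin-like peptides that act on the receptors CKR-1 and CKR-2 and is known from the tail interneuron DVA, which senses body stretch. It read 2017, 118 and 3621 TPM in replicates 1, 2 and 3 of unc-4, against 33.1, 26.2 and 35.4 TPM in replicates 1, 2 and 3 of wild type. The pattern was that of flp-15, with replicate 2 far below the other mutant libraries but still above wild type. The mean was 1919 ± 1753 TPM in unc-4 and 31.6 ± 4.83 TPM in wild type (SD, n = 3 each). The ratio of means, 60.8, was 33.8 without unc-4 replicate 3 and 29.5 with geometric means.

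The gene capa-1 (WBGene00021268, chromosome X, 5919397 to 5920495, plus strand) encodes neuromedin U-like peptides that act on the receptor NMUR-1 and is known from the sensory neuron ASG. It read 1895, 44.1 and 783 TPM in replicates 1, 2 and 3 of unc-4, against 16.4, 6.72 and 17.4 TPM in replicates 1, 2 and 3 of wild type. Here replicate 1 was the highest, 2.42 times above replicate 3, and the mutant libraries spanned a factor of 43.0, the widest range among the members. The mean was 907 ± 932 TPM in unc-4 and 13.5 ± 5.91 TPM in wild type (SD, n = 3 each). The ratio of means, 67.1, was 30.6 without unc-4 replicate 1 and 30.02 with geometric means.

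The gene nlp-81 (WBGene00022063, chromosome IV, 3173540 to 3176117, minus strand) was the member with the lowest level in both groups. It read 115.3, 8.74 and 234.6 TPM in replicates 1, 2 and 3 of unc-4, against 4.72, 3.55 and 7.10 TPM in replicates 1, 2 and 3 of wild type. Replicate 2 of the mutant barely cleared the wild type values, at 1.23 times the highest of them. The mean was 119.5 ± 113 TPM in unc-4 and 5.12 ± 1.81 TPM in wild type (SD, n = 3 each). The ratio of means, 23.3, was 12.1 without unc-4 replicate 3 and 10.8 with geometric means.

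The gene nlp-40 (WBGene00022276, chromosome I, 11495 to 16837, plus strand) is known for peptides that the intestine releases in the defecation cycle and that act on the receptor AEX-2. It read 1104, 134 and 1077 TPM in replicates 1, 2 and 3 of unc-4, against 101, 36.0 and 93.4 TPM in replicates 1, 2 and 3 of wild type. Its lowest unc-4 library lay 1.32 times above its highest wild type library, so the separation rests on a narrow gap. The mean was 772 ± 552 TPM in unc-4 and 77.0 ± 35.7 TPM in wild type (SD, n = 3 each), a ratio of 10.03. Of 5 intestine markers (ges-1, elt-2, elt-7, pho-1 and nhx-2) none is in either table. Only genes called higher are listed, so this does not measure whether intestinal cells were sorted.

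The orcokinin-type precursor gene nlp-15 (WBGene00003753, chromosome I, 12988231 to 12995475, plus strand) had the smallest ratio of the members. It read 1842, 1859.9 and 3695 TPM in replicates 1, 2 and 3 of unc-4, against 388, 546 and 564 TPM in replicates 1, 2 and 3 of wild type. For this gene unc-4 replicates 1 and 2 were close to each other and replicate 3 was higher. The lowest mutant library lay 3.27 times above the highest wild type library. The mean was 2466 ± 1065 TPM in unc-4 and 499 ± 96.8 TPM in wild type (SD, n = 3 each), a ratio of 4.94.

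The gene nlp-38 (WBGene00007219, chromosome I, 13402448 to 13404106, plus strand) encodes myoinhibitory-type peptides reported to act on the receptor SPRR-2. It read 128, 461 and 189.9 TPM in replicates 1, 2 and 3 of unc-4, against 39.8, 28.3 and 14.9 TPM in replicates 1, 2 and 3 of wild type. Unlike the other members it was highest in unc-4 replicate 2. The mean was 259 ± 177 TPM in unc-4 and 27.7 ± 12.4 TPM in wild type (SD, n = 3 each). The ratio of means, 9.38, was 5.74 without unc-4 replicate 2.

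In the mutant neurons the order of mean levels was flp-9, nlp-15, flp-15, nlp-12, capa-1, nlp-40, flp-18, nlp-38 and nlp-81. Only flp-9 was clear of its neighbour, with a lowest library (5269.8 TPM) above the highest of nlp-15 (3695 TPM); all other neighbours in that order overlapped. In wild type neurons the order was nlp-15, flp-9, nlp-40, flp-15, flp-18, nlp-12, nlp-38, capa-1 and nlp-81. There nlp-15 and flp-9 overlapped with each other, and flp-9 at its lowest (204 TPM) lay above nlp-40 at its highest (101 TPM). By at least 2 places, capa-1 and nlp-12 stood higher and nlp-40 and flp-18 lower in the mutant order than in the wild type order. All 9 genes are annotated as protein coding, no other annotated gene overlaps any of them, and 4 of 9 lie on chromosome I, which holds 15.9% of the listed genes.

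The members differed in how they followed the spread among unc-4 libraries. Taking replicate 2 over the mean of replicates 1 and 3, capa-1, nlp-12, nlp-81 and flp-15 had ratios of 0.0329, 0.0419, 0.04997 and 0.0547. The gene nlp-40 stood at 0.123, near the median of 0.150 over all listed genes, whose quartiles were 0.0502 and 0.447. Above that came flp-18 at 0.474, flp-9 at 0.589 and nlp-15 at 0.672. The gene nlp-38 reached 2.90, and it was 1 of 13 listed genes with replicate 2 above both other mutant libraries. Those 13 also included ceh-12, the precursor gene nlp-71 and ckr-1, which encodes a receptor of NLP-12 peptides.

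**Figure D2:**
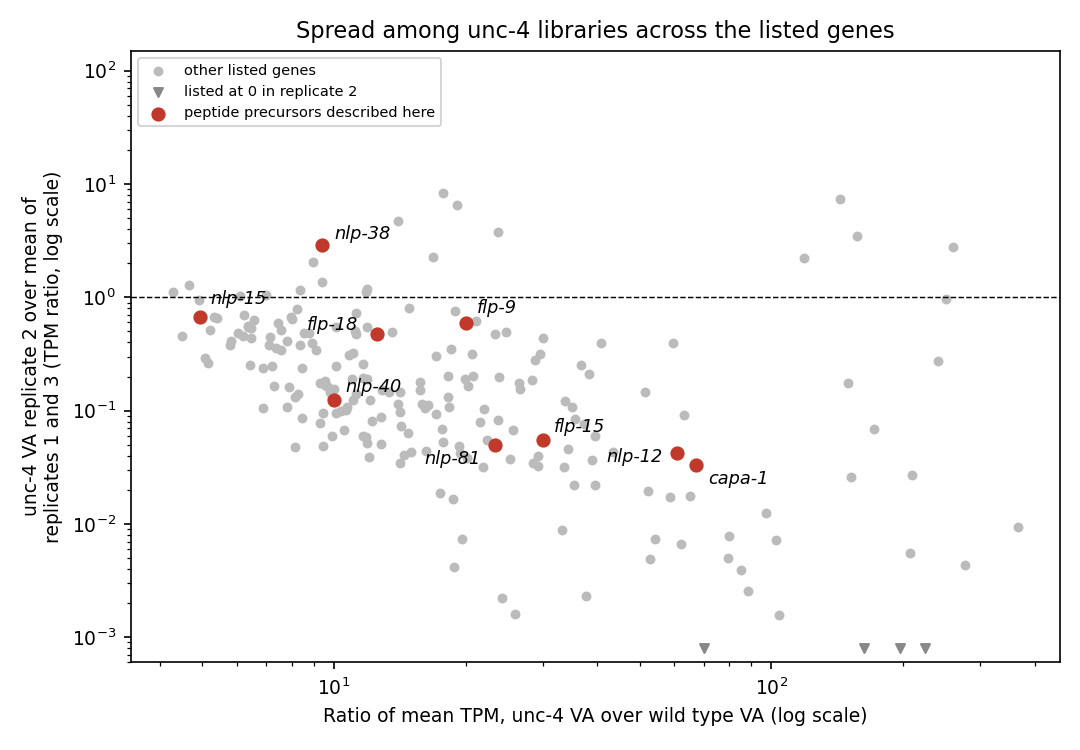
Each point is 1 of the 214 listed genes, with the ratio of mean TPM of unc-4 VA over wild type VA on the horizontal axis and TPM of unc-4 replicate 2 over the mean of unc-4 replicates 1 and 3 on the vertical axis (both log scales). The members (red) run from 0.0329 for capa-1 to 2.90 for nlp-38, and the dashed line marks equal levels; genes listed at 0 in replicate 2 are drawn as triangles at the lower edge.

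In wild type libraries the same 7 members that were lowest in unc-4 replicate 2 were also lowest in wild type replicate 2, namely all but nlp-15 and nlp-38. With heat shock genes left out of the wild type total, a setting chosen after seeing the data, 4 of these 7 remained lowest there. Over all 214 listed genes 109 were lowest in wild type replicate 2 and 85 under that setting, and 93 and 75 were lowest in replicate 2 of both groups. The members' ratios of mean TPM under that setting ran from 4.13 for nlp-15 to 60.5 for capa-1, and all 9 stayed separated. Only wild type libraries were rescaled, which can only raise their values and lower these ratios.

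Likeness of profiles was measured over the 6 VA libraries as the mean absolute difference of centred log2(TPM + 1) values, where 0 is an identical shape, among the 193 genes of the unc-4 list that averaged 10 TPM or more in the mutant. The closest pair of members was flp-15 with nlp-81 at 0.29, followed by flp-9 with flp-18 at 0.39 and flp-15 with nlp-12 at 0.44, beside a median of 0.97 over all 36 pairs. From each member to all other genes of this set, the median ran from 0.69 for nlp-40 to 1.26 for nlp-38. The pair median lies within that range. Among all candidates, flp-18 was nearest to flp-11 (0.13) and C47D2.1 (0.19), and flp-9 to hot-1 (0.21) and flp-11 (0.33). The genes flp-15 and nlp-81 were both nearest to scl-14 (0.23 and 0.19), and F41E7.7 came next for nlp-81 (0.25). The ratio of mean TPM was 209 for scl-14, beside 30.1 for flp-15 and 23.3 for nlp-81. Adding 1 TPM compresses ratios at low levels, so a small distance does not mean equal ratios. Nearest to nlp-12 were flp-15 and W05E10.5 (0.54), and nearest to nlp-15 were Y64G10A.7 (0.21) and W06F12.2 (0.25). The gene nlp-40 was nearest to ZC410.5 (0.20) and ptr-24 (0.23), capa-1 to gcy-11 (0.41) and C15C7.4 (0.45), and nlp-38 to ckr-1 (0.44) and vab-23 (0.45). All profiles share the same 6 libraries and a selection for high unc-4 levels, which makes profiles alike.

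Marker genes of other cells were also in the unc-4 list, and their part in the members' levels was not tested. Of 3 ASG markers, gcy-15 read 66.2, 0 and 12.1 TPM in replicates 1, 2 and 3 of unc-4 and at most 0.622 TPM in wild type. The guanylate cyclase gene gcy-21 read 69.7, 0.0766 and 27.8 TPM in the same unc-4 libraries and at most 0.570 TPM in wild type, while lim-6 was not listed. In neither did the groups separate.

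The head motor neuron markers lim-4 and ceh-24 summed to 779.7, 37.8 and 1536 TPM in replicates 1, 2 and 3 of unc-4, against 53.9, 2.91 and 40.5 TPM in replicates 1, 2 and 3 of wild type. The groups overlapped for lim-4, at 28.7 TPM in unc-4 replicate 2 against 46.8 TPM in wild type replicate 1. For ceh-24 they did not overlap. The other head motor neuron marker, unc-42, was not in the unc-4 list. Of 3 coelomocyte markers, unc-122 and cup-4 were listed and summed to 1831, 173 and 686 TPM in replicates 1, 2 and 3 of unc-4, against 38.6, 55.6 and 142 TPM in replicates 1, 2 and 3 of wild type, while lgc-26 was not listed. The GABA neuron marker unc-30 (1 of 5 listed) read 80.7, 51.6 and 134 TPM in replicates 1, 2 and 3 of unc-4 and 6.04 to 13.2 TPM in wild type. The command interneuron marker glr-2 (1 of 4 listed) read 26.6, 11.3 and 14.8 TPM in replicates 1, 2 and 3 of unc-4 and 0.323 to 2.16 TPM in wild type.

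The VB gene ceh-12 was also higher in unc-4, but among the unc-4 libraries it was highest in replicate 2. It read 40.2, 139 and 85.5 TPM in replicates 1, 2 and 3 of unc-4 and at most 1.11 TPM in wild type. The other VB marker, acr-5, was not listed. Of the 9 listed markers the other 8 were lowest in unc-4 replicate 2, as were 7 of the 9 members and 178 of all 214 listed genes. With replicate 2 lowest, replicate 1 was highest in 93 listed genes, among them capa-1, flp-18, nlp-40, the ASG and coelomocyte markers and glr-2. Replicate 3 was highest in 85, among them flp-9, flp-15, nlp-12, nlp-81, lim-4, ceh-24 and unc-30. These orders are common in the list, so a shared order ties no member to a cell type. Markers of ciliated sensory neurons (0 of 9), monoamine neurons (0 of 6), touch neurons (0 of 5), body muscle (0 of 4), glia (0 of 3), glutamate neurons (0 of 1, eat-4) and the pharyngeal neuron I2 (0 of 1, gur-3) were not in the unc-4 list. A gene with equal levels in both groups would not be listed, so this does not measure how many such cells were sorted.

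**Figure D3:**
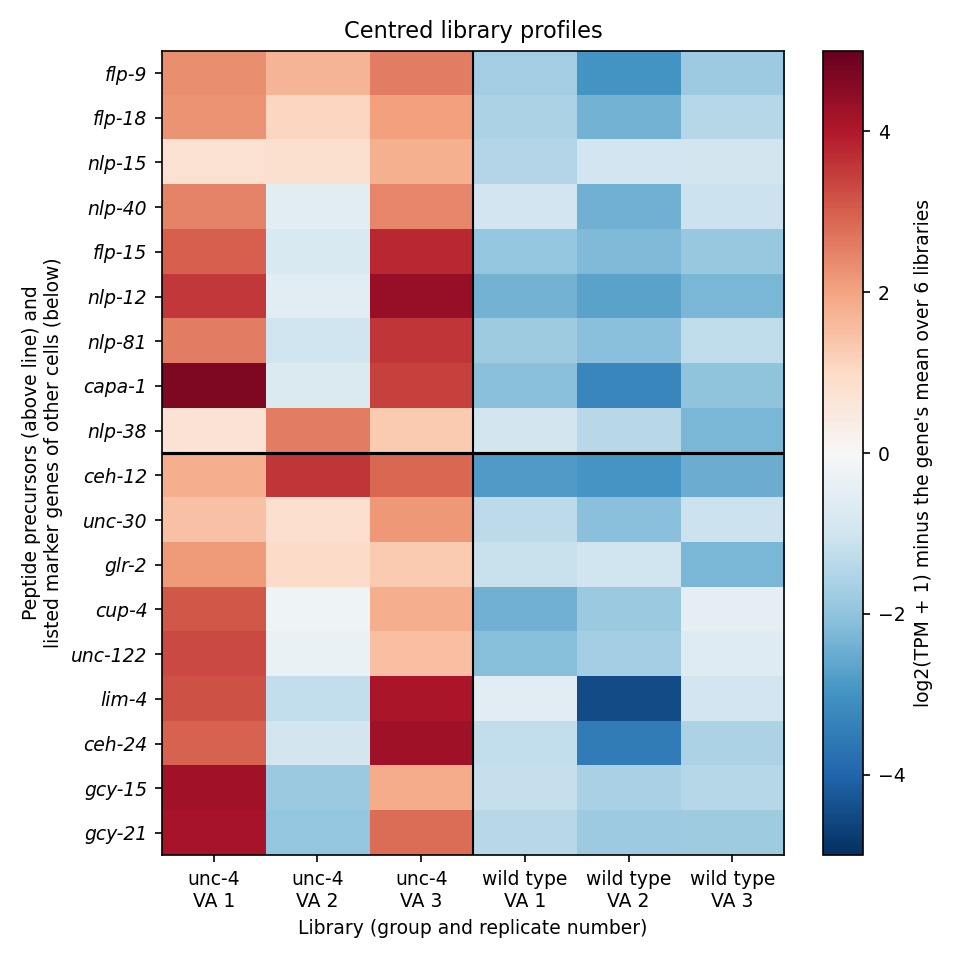
Each cell shows log2(TPM + 1) of a gene in 1 VA library minus that gene's mean over the 6 libraries, with the unc-4 libraries left of the wild type libraries. The 9 members stand above the line and the 9 listed marker genes below it; among the members, unc-4 replicate 2 is below the mean for nlp-40, flp-15, nlp-12, nlp-81 and capa-1 and above it for flp-9, flp-18, nlp-15 and nlp-38.

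The whole-worm table, which lists genes the authors called higher in wild type VA neurons than in whole worms, holds 2 of the 9 members. Every one of its 2349 genes (100%) was called in that direction, so these levels too are a description with no test. The gene nlp-15 read 388, 546 and 564 TPM in wild type VA replicates 1, 2 and 3, against 55.8, 66.6 and 74.3 TPM in whole-worm replicates 2, 3 and 4. Its mean was 499 ± 96.8 TPM in wild type VA neurons and 65.5 ± 9.31 TPM in whole worms (SD, n = 3 each), a ratio of 7.62. The gene nlp-38 read 39.8, 28.3 and 14.9 TPM in the same VA libraries, against 6.43, 7.01 and 9.29 TPM in whole-worm replicates 2, 3 and 4. Its mean was 27.7 ± 12.4 TPM in wild type VA neurons and 7.58 ± 1.51 TPM in whole worms (SD, n = 3 each), a ratio of 3.65. Both genes were separated between these groups, as were 91.9% of all genes of that table.

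For both genes mean levels stood, high to low, in the order unc-4 VA, wild type VA and whole worms, without overlap between neighbouring groups. Being called higher in both contrasts sets this order of means in advance. The wild type values behind both steps are the same libraries, so the steps share their error. Among 36 peptide precursors of the whole-worm table, nlp-15 ranked 13 and nlp-38 ranked 29 by mean level in wild type VA neurons, and they ranked 24 and 27 by ratio. The median ratio was 9.23 over these precursors and 5.30 over all listed genes. The other 7 members were not in that table.

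**Figure D4:**
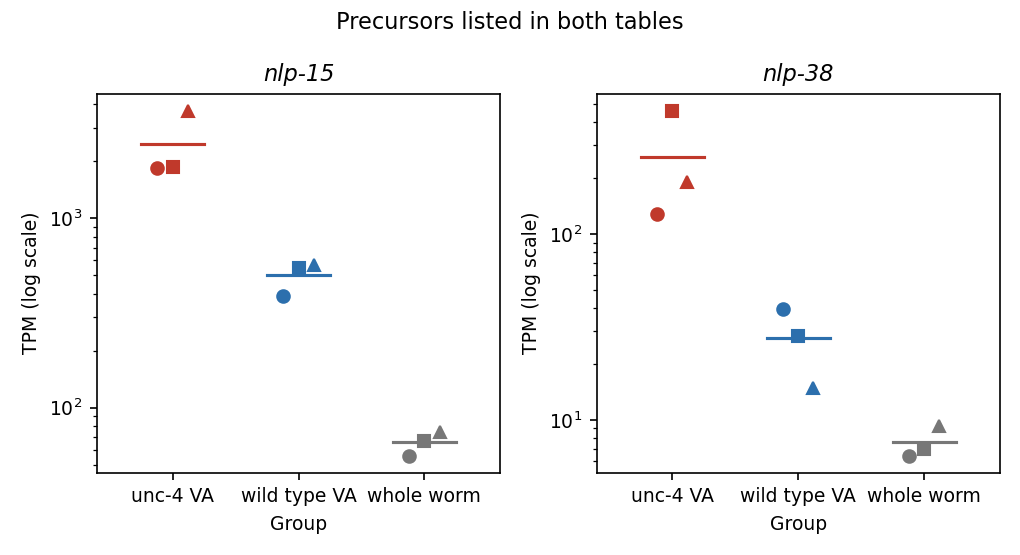
TPM (log axes) of nlp-15 and nlp-38 in unc-4 VA, wild type VA and whole-worm libraries, with 1 point per library and a line at the group mean. The groups do not overlap in either gene; nlp-15 averages 2466, 499 and 65.5 TPM and nlp-38 259, 27.7 and 7.58 TPM.

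Other parts of the peptide pathway were compared as lists. Of 138 other annotated peptide precursors, 6 were in the unc-4 list, 34 in the whole-worm list and 98 in neither. The 6 were flp-10, flp-11, nlp-6, F14F11.2 (now nlp-55), C45G9.13 (now nlp-43) and Y73B6BL.35 (now nlp-71), and 4 of them were separated, beside 70.1% of all listed genes. The FMRFamide-like gene flp-11, known from the sleep-promoting neuron RIS, read 659, 362 and 811 TPM in replicates 1, 2 and 3 of unc-4, against 51.5, 27.0 and 56.7 TPM in replicates 1, 2 and 3 of wild type, close to flp-18 in level and shape. The gene nlp-71 read 418, 505 and 450.1 TPM in replicates 1, 2 and 3 of unc-4, against 89.4, 27.2 and 47.5 TPM in replicates 1, 2 and 3 of wild type, the most even of the listed precursors among mutant libraries. Ratios of mean TPM were 19.4 for flp-10, 15.9 for nlp-43 and 12.2 for nlp-55. The gene nlp-6 averaged 87.1 ± 124 TPM in unc-4 and 7.26 ± 4.77 TPM in wild type (SD, n = 3 each), and nlp-6 and nlp-55 overlapped between the groups.

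None of 9 peptide processing genes and none of 13 dense core vesicle genes was in the unc-4 list. That list holds 214 genes, all called higher, so absence from it does not show equal levels. Of the processing and vesicle genes, 7 of 9 and 10 of 13 were among the 2349 genes of the whole-worm table, higher in VA neurons. Genes that were not called are missing from both lists, so the share over all genes is not known. The proprotein convertase gene egl-3 averaged 1406 ± 588 TPM in VA neurons and 102 ± 7.78 TPM in whole worms (SD, n = 3 each). Its chaperone gene sbt-1 averaged 7911 ± 3542 TPM in VA neurons and 632 ± 32.2 TPM in whole worms, and ratios of mean TPM were 9.89 for the carboxypeptidase gene egl-21 and 7.95 for the amidating enzyme gene pghm-1. Among vesicle genes, ratios were 18.5 for the release factor gene unc-31, 14.5 for tbc-8, 9.21 for vps-50 (listed as vesa-1) and 8.87 for ida-1. Levels behind some of these ratios were low. For vps-50 the mean was 2.35 ± 1.63 TPM in VA neurons and 0.255 ± 0.187 TPM in whole worms (SD, n = 3 each). Its lowest VA library (0.506 TPM) lay near its highest whole-worm library (0.406 TPM). For unc-31 the means were 12.3 and 0.663 TPM.

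Of 9 receptor genes reported for peptides of these members, npr-4 and ckr-1 were in the unc-4 list. The FLP-18 receptor gene npr-4 read 54.01, 8.96 and 57.5 TPM in replicates 1, 2 and 3 of unc-4, against 6.70, 2.11 and 6.46 TPM in replicates 1, 2 and 3 of wild type. The NLP-12 receptor gene ckr-1 read 34.4, 73.4 and 36.7 TPM in replicates 1, 2 and 3 of unc-4, against 9.34, 2.47 and 4.37 TPM in replicates 1, 2 and 3 of wild type. Both were separated between the groups. Among mutant libraries nlp-12 was lowest in replicate 2, where ckr-1 was highest. In wild type VA neurons against whole worms, 4 of the 9 were listed, with ratios of 13.9 for npr-5, 5.71 for npr-1, 4.21 for npr-3 and 3.62 for ckr-2, while aex-2, nmur-1 and sprr-2 were in neither list.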

How the data were processed

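The members and gene lists were chosen with earlier results of these data known. Per the file headers, the authors deposited TPM values per library and mean TPM per group, with a linear fold change (a ratio) and an FDR p-value, in 2 tables. The genome build is WBcel235 per the submitters' processing notes; the aligner, counter and test are not given in the sources used here. In both tables every gene has an FDR p-value under 0.05 and a fold over 1; 2 rows that name no gene were left out. The 13 genes in both tables have identical wild type TPM. Library columns were matched to samples by library code and grouped by title. Means, SD, ratios of mean TPM and differences of log2(TPM + 1) were computed in Python 3.11.15 with pandas 2.3.3 and checked on simulated data. No test was run, because the rule chose the members on this contrast. Gene identifiers of 214 listed genes matched the Ensembl release 115 annotation, and 213 matched a current symbol. The text names all members, every listed precursor, receptor and marker gene of the unc-4 table, up to 4 genes per list of the whole-worm table by ratio, and the 2 nearest profiles per member. Alternatives left out each library, changed the pseudocount, the averaging and the filter on low values, and rescaled for heat shock genes. TPM keeps no depth, so no counting interval is given. Promoter and protein sequences were not used here.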

Additional observations from a re-analysis of the deposited data

How the results depend on the processing

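No alternative value changed direction under the settings run. The compared groups do not overlap for these genes, so leaving out a library cannot reverse a ratio or a difference. Changing the average or the pseudocount cannot do so either, so under those settings the direction was fixed in advance. The count of separated members was 9 with any 1 library left out. Leaving out a library cannot undo a separation, so that value was fixed in advance. The count was 9 with heat shock genes left out of the wild type total. It was 7 when the lowest unc-4 library had to lie at least 2-fold above the highest wild type library. The genes nlp-40 and nlp-81 missed that gap. The median log2(TPM + 1) difference over the members, 3.60, lay between 3.19 and 4.63 with 1 library left out, the highest without unc-4 replicate 2, and was 3.63, 3.36 and 3.38 with pseudocounts of 0.1 and 10 and with the heat shock rescaling. Of 81 alternatives for the members' ratios, 81 moved by less than the spread between unc-4 libraries. That spread is wide for flp-15, nlp-12, nlp-81 and capa-1 and, less so, for nlp-40. Leaving out an unc-4 library can move the unc-4 mean only within that spread, so for those alternatives the outcome was fixed in advance. This count is therefore no measure of stability. Leaving out 1 library moved 5 ratios by over 1.5 times (flp-15, nlp-12, nlp-38, nlp-81 and capa-1, given above), and geometric means lowered 4 of them by over 1.5 times, to 16.2 for flp-15, 29.5 for nlp-12, 10.8 for nlp-81 and 30.02 for capa-1, all under the values with 1 library left out. Ratios of medians moved none by that much. The ratios of wild type VA over whole worms lay between 7.09 and 8.47 for nlp-15 and between 2.85 and 4.49 for nlp-38 with 1 library left out, and were 9.10 and 4.35 with heat shock genes left out of the totals. The filter at 1 TPM removed none of the 214 listed genes. Same-numbered libraries were not paired, because the labels tie them to no shared culture or day and no test was run. The planned search of promoter and precursor sequences was not run. TPM keeps no depth, so what counting error limits is unknown.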
